A study of Mus musculus with 51 samples.

Results

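Limb buds of E11.5 (E, embryonic day) were set against whole embryos of the same day. The 4 arrays titled forelimb E11.5 and the 5 titled hindlimb E11.5 were compared with the 2 titled whole embryo E11.5, which makes 11 of the 51 arrays of the series. Forelimb and hindlimb are abbreviated FL and HL. Every embryo was a wild-type FVB mouse with no allele or treatment, each array held RNA of a single embryo with no pooling, and the limb replicates of a stage came from 1 litter, so their spread is that between litter mates. Limb buds were taken from the trunk whole, as mixtures of mesenchyme, ectoderm, vessels, blood and migrating cells. In such samples, fewer cells of a type and less RNA per cell cannot be told apart. The other 40 arrays, FL, HL and whole embryo of the other days, entered the estimate of the spread and the comparisons of E11.5 with E10.5 and E12.5.

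The E11.5 limb bud is a paddle of mesenchyme under a jacket of ectoderm. The apical ectodermal ridge at its rim secretes fibroblast growth factors that keep the mesenchyme beneath it growing, the zone of polarizing activity at its posterior edge secretes Sonic hedgehog, and the posterior genes of the HoxA and HoxD clusters are switched on in turn from the shoulder or hip towards the future digits. Cartilage begins to condense in the core, and muscle precursors arrive from the somites. A whole embryo of this day holds a brain and spinal cord, a beating heart and a liver that makes plasma proteins and red cells, organs that a limb bud lacks.

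The promoters of 4 genes are shown because these genes stand at both ends of the comparison, a pair of HoxD genes that were high in both limbs and a pair of liver genes that were low in both. Each window runs from 250 bases before to 50 bases after the start of transcription, on the plus strand of GRCm38.p6 as given by RefSeq. Capitals mark the motifs that were searched on both strands, TATAAA (the TATA box), GTTAAT (part of the site of the liver factor HNF1) and GGGCGG (the GC box bound by Sp1), and neighbouring matches overlap in Hoxd13. Hoxd12 lies at chr2:74674763-74675062, Hoxd13 at chr2:74667975-74668274, Alb at chr5:90460620-90460919 and Afp at chr5:90490464-90490763, and each window is 5′ to 3′.
Hoxd12: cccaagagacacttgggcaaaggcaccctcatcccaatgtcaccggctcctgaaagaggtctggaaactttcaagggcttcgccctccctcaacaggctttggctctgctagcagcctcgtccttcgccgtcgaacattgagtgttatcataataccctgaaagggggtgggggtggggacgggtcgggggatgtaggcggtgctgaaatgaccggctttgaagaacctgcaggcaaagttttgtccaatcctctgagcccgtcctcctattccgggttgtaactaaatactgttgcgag
Hoxd13: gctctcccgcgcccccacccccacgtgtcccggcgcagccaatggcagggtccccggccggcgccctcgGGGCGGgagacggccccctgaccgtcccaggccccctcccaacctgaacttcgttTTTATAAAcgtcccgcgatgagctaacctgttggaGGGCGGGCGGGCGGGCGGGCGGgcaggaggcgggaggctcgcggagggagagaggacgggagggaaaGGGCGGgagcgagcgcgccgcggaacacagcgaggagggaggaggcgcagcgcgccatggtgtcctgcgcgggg
Alb: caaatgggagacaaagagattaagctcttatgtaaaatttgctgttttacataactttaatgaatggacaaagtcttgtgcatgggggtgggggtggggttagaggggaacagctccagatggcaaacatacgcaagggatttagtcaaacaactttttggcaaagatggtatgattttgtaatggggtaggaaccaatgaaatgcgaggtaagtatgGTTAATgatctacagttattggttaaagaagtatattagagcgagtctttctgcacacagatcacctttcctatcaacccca
Afp: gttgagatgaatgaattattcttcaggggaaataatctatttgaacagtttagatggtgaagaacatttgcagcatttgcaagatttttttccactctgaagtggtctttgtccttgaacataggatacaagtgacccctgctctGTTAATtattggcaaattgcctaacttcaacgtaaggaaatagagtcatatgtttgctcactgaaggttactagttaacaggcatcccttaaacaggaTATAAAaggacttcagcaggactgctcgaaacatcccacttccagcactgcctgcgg

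Guanine and cytosine made up 74.3% of the Hoxd13 window and 55.0% of that of Hoxd12, against 40% in Alb and in Afp. GTTAAT was present in 5 of the 10 liver genes with a window (50%) and in 3 of the 10 posterior HoxA and HoxD genes (30.0%), and GGGCGG in none and in 6 (60.0%). Over all 32851 promoter windows, GTTAAT was found in 7.1%, GGGCGG in 35.7% and TATAAA in 13.6%. Of the 1872 genes higher in both limbs described next, 1541 had a window, and 73.1% of these held GGGCGG, 5.13% GTTAAT and 8.96% TATAAA. Among the 14453 tested genes with a window the shares were 57.3% for GGGCGG and 6.27% for GTTAAT, with TATAAA in 1662, and among the 602 genes lower in both limbs they were 53.7% and 9.09%, with 16.2% for TATAAA. These are counts of letters in a window and not of bound sites.

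Some features of the arrays bear on the results. The labels of HL replicate 5 are at odds, as its source and tissue labels name a fore-limb of E12.5 while its title reads hindlimb E11.5. Its log2 levels of Tbx4 (10.05), Pitx1 (10.65) and Tbx5 (5.75) were those of the other hindlimbs, and over all genes it lay closest to them, at a root mean square distance of 0.153 log2 against 0.232 to FL E11.5, 0.25 to HL E12.5 and 0.366 to FL E12.5. It was kept as titled, and the counts without it are given where they differ. The whole-embryo arrays also stand apart in kind from the limb arrays. Probe sets at the 3′ end of Gapdh read 2.23 and 2.06 log2 above those at its 5′ end in the whole-embryo pair and -0.06 to 0.05 in the limbs, and the interquartile range of all log2 values was 3.59 and 3.80 against 4.24 to 4.35. In the Gapdh measure the E9.5 forelimbs, with 1.48 to 1.73, were nearer than any later limb array to whole embryo but did not overlap the E9.5 embryos (2.03 and 2.85), and in the log2 level that the brightest hundredth of probe sets exceeded (12.68 to 12.72) they were like the E11.5 limbs (12.67 to 12.70) and not the E11.5 embryos (11.92 and 12.16). At E11.5 the kind of array and limb against embryo cannot be told apart. The log2 difference of FL over whole embryo at E9.5 is given beside the genes below, though the arrays were not matched on that day either. Last, FL replicate 3 had the largest Actb difference of the limb arrays (0.70 against 0.19 to 0.26) and was the lowest forelimb in several genes named below. Arrays of a group correlated at 0.994 to 0.997 in the limbs and 0.986 in whole embryo.

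Of 18194 genes tested, 1872 (10.3%) were higher and 602 (3.31%) lower than in whole embryo in both limbs, a call requiring at least a 2-fold change and, in limma, an adjusted p (Benjamini-Hochberg) below 0.001. FL alone gave 2124 genes up (11.7%) and 663 down (3.64%) and HL alone 2140 up (11.8%) and 718 down (3.95%). Both comparisons share the same 2 whole-embryo arrays. Without HL replicate 5, 1863 genes were higher and 599 lower in both limbs. The median gene of the up set was 1.42 log2 higher in FL and 1.45 in HL, and that of the down set 1.5 lower in FL and 1.6 lower in HL (-1.5 and -1.6), while the median over all genes was 0.09 and 0.07. The share of calls that were up was 75.7%, and it was 56.4% after quantile normalization between arrays and 91.5% over the 9097 genes left by a filter on dim genes. That filter takes the mean over 9 limb and 2 whole-embryo arrays, so genes low in the limbs are dropped by its design. It left 1775 of the 1872 up genes but 164 of the 602 down genes to be tested, so the 91.5% follows largely from the filter. The 9 limb arrays did not overlap the 2 whole-embryo arrays in 1870 of the up genes and 600 of the down genes. Over all genes this held for 53.0%, so it separates few of them.

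Many genes are read by several probe sets, which need not give the same answer. Of the 1079 up genes with 2 or more probe sets, 411 (38.1%) had every probe set on the same side in both limbs and at least 2 of them called in both, and 87 of 260 down genes did (33.5%). In 12 up and 3 down genes single probe sets were called in opposite directions. These include Rps9 of the small ribosomal subunit among the down genes and the actin-sequestering Tmsb10 among the up genes. At E9.5, where limb and embryo arrays were closer in the Gapdh measure but not alike, the median FL difference was 0.4 for the up genes and -0.48 for the down genes, and 9.67% of the up genes (181) and 24.9% of the down genes (150) were called the same way, against 2.08% and 1.61% of all genes. An E9.5 limb bud is also a younger tissue, and the share of stage and of array kind in these percentages was not tested.

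**Figure D1:**
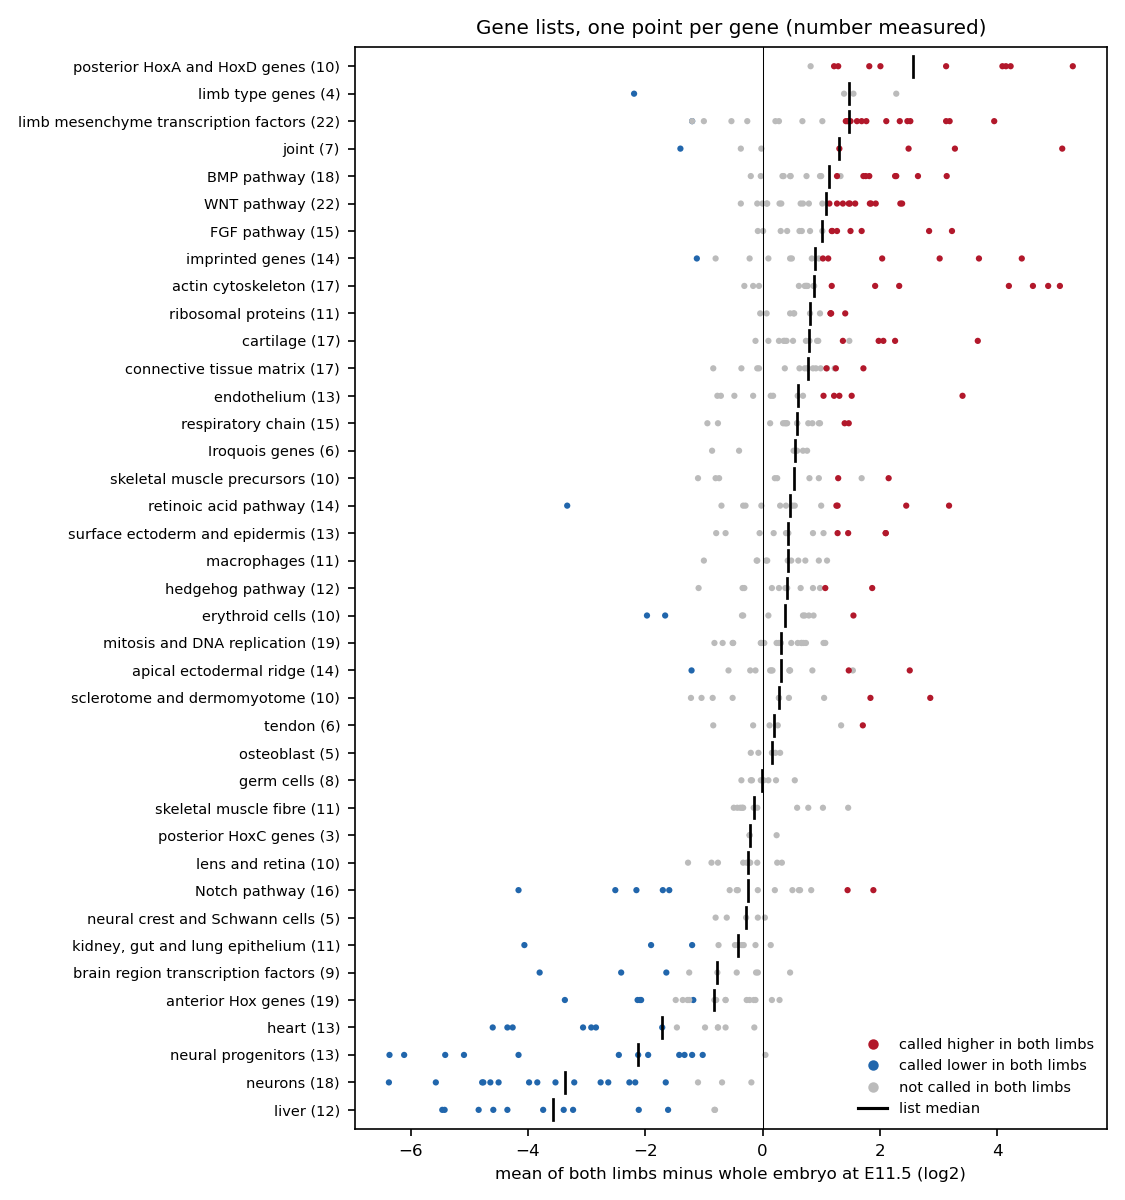
Difference of both limbs from whole embryo at E11.5 (log2, x axis) for the measured genes of 39 lists (y axis), with 1 point per gene and a bar at the median of each list. The posterior HoxA and HoxD genes lie farthest to the right with a median of 2.57, and the liver and neuron lists farthest to the left with -3.57 and -3.37.

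The counts of the lists below stand against 10.3% of all genes called higher and 3.31% called lower in both limbs. The posterior genes of the HoxA and HoxD clusters, which pattern the limb from its base to the digits, made up the list of highest median. Of 10 genes, 9 were higher in both limbs and none lower, with a median difference of 2.57 log2, and Hoxd8 was called in FL alone. Hoxd12, a gene of the future hand and foot, showed the widest gap. Its log2 levels were 9.24, 9.09, 8.76 and 9.10 in FL, 8.69, 8.84, 8.96, 8.85 and 8.82 in HL and 3.94 and 3.35 in whole embryo. Every limb array was thus far above both embryos, and the difference of 5.29 (SE 0.24, adjusted p = 9.91e-23 in limma) is a fold of 39.1 against embryo levels near the bottom of the array scale, which makes it inexact. Hoxd13, the last gene of the cluster, read 10.92, 11.15, 10.97 and 11.11 in FL, 10.59, 10.45, 10.86, 10.55 and 10.70 in HL and 6.83 and 6.54 in whole embryo, 4.15 ± 0.19 (SE) higher in the limbs. Hoxa13 was 4.23 ± 0.31 higher, with FL replicate 3 lowest at 7.99 among forelimbs of 8.54 to 8.60. Hoxd11 (4.09 ± 0.13) and Hoxa11 (3.13 ± 0.14), genes of the forearm and shank, came next. The genes of the upper arm and thigh differed less, with Hoxd10 at 2.01, Hoxd9 at 1.82, Hoxa10 at 1.29, Hoxa9 at 1.22 and Hoxd8 at 0.82. The last 3 are averages of 2 probe sets that disagreed, at 1.92 and 0.65 in Hoxa10, 1.86 and 0.58 in Hoxa9 and 1.8 and -0.17 in Hoxd8. The order among these 5 genes thus depends on the averaging. Hoxd13 averages 5.67 and 2.63. At E9.5 the order was otherwise, with 3.69 for Hoxd9 and 2.62 for Hoxd8 and 0.28, -0.01 and -0.02 for Hoxd12, Hoxd13 and Hoxa13. Hoxa9 and Hoxa10 lost their calls under quantile normalization, with 0.79 and 1.17, and 7 of the 10 genes were then called.

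**Figure D2:**
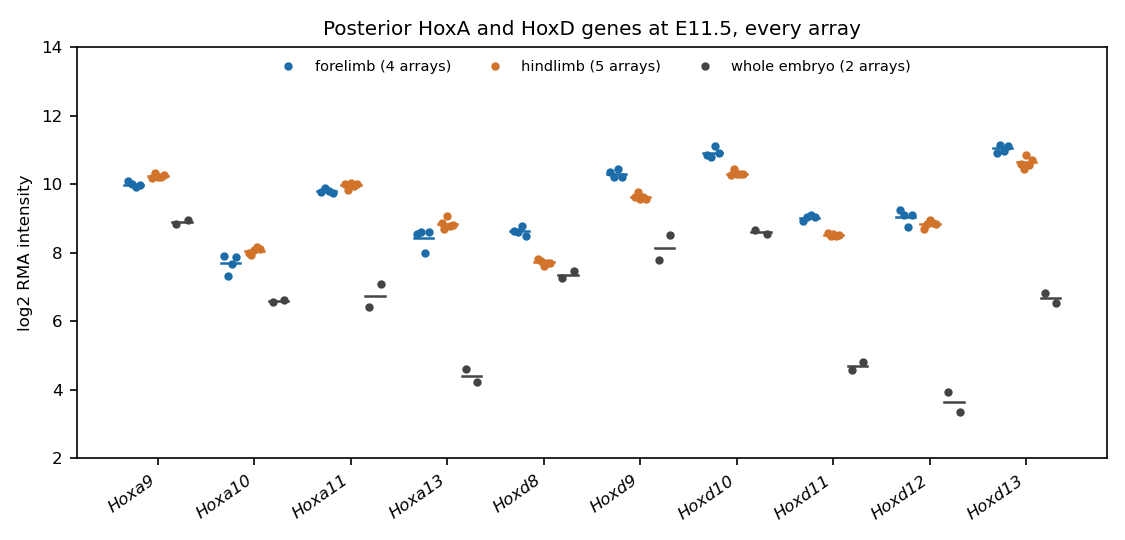
Log2 levels (y axis) of the 10 posterior HoxA and HoxD genes (x axis) on each FL, HL and whole-embryo array of E11.5, 1 point per array and a bar at each group mean. The limb points lie above both whole-embryo points in each gene, and the gap is widest in Hoxd12, with 8.69 to 9.24 against 3.35 and 3.94.

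The transcription factors of limb mesenchyme followed. Of 22, 13 were higher in both limbs and 1 lower, with a median of 1.47. Tbx15, a T-box factor of dorsal and skeletal mesenchyme, read 10.21, 10.17, 9.73 and 10.16 in FL, 10.07, 10.10, 10.22, 10.10 and 10.03 in HL and 6.06 and 6.22 in whole embryo. All limb arrays were above both embryos, by 3.95 ± 0.15 (a fold of 15.4), and the E9.5 difference was 1.59. Hand2, which sets up the posterior margin, was higher by 3.19 (E9.5 0.98) and Shox2, needed for the humerus and femur, by 3.13 (E9.5 1.96). The early mesenchymal genes Prrx1 (2.47), Prrx2 (2.34), Twist2 (1.69) and Twist1 (1.5) were all called, as were Lhx9 (2.52) and Lhx2 (2.11), which relay signals of the ridge, and Lmx1b (1.45), which makes the limb dorsal. Meis1, a gene of the limb base, was the one called lower (-1.2), and its relative Meis2 had the same difference of -1.2 without a call in both limbs.

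Signals and their targets are given next, after which come the tissues. Of 18 genes of the bone morphogenetic protein (BMP) pathway 8 were higher in both limbs and none lower (median 1.14), and these ran from ligands to targets. Among the ligands, Bmp4 was higher by 2.28 (E9.5 1.24), Bmp7 by 2.26 and Bmp2 by 1.72. The target Id1 read 11.60 to 11.81 in FL, 11.31 to 11.51 in HL and 8.39 and 8.41 in whole embryo, a difference of 3.14 ± 0.14. Grem1, the BMP antagonist that keeps the ridge alive, was higher by 2.65 ± 0.33, with 8.44, 6.84, 6.04 and 7.75 in FL and 8.39 to 9.08 in HL against 5.23 and 5.56 in whole embryo. It lost its call in a fit of the E11.5 arrays alone and without whole-embryo replicate 1.

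In the fibroblast growth factor (FGF) pathway 7 of 15 genes were higher in both limbs and none lower (median 1.02). Fgf10, the mesenchymal ligand that calls the ridge into being, was higher by 1.69 ± 0.20, and Etv5, a nuclear target of FGF, by 2.84 ± 0.10 (E9.5 1.45). Fgf18, which acts on cartilage, read 6.85 to 7.68 in FL, 7.27 to 7.41 in HL and 3.69 and 4.46 in whole embryo, a difference of 3.23 ± 0.29 against -0.73 at E9.5. The feedback inhibitors Spry2 (1.5), Dusp6 (1.27) and Spred1 (1.19) were called as well. Of 22 WNT genes 11 were higher and none lower (median 1.08), among them the secreted inhibitor Wif1 (2.38, E9.5 3.7), the transducer Ctnnb1 (2.35, E9.5 0.49) and its partner Lef1 (1.93, E9.5 2.03). Without HL replicate 5 the count was 10. In Ctnnb1 and Lef1 the brightest probe set alone gave 0.53 and 0.85, short of a call, and with the brightest probe set of each gene 5 WNT genes were called. Quantile normalization left 7 WNT and 4 FGF genes.

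Retinoic acid, which must be cleared from the distal bud, gave 4 genes up and 1 down of 14 (median 0.46). The receptor Rarg was higher by 3.18 ± 0.15 and the degrading enzyme Cyp26b1 by 2.45 ± 0.19, while the synthesizing enzyme Aldh1a1 fell by 3.33 on the log2 scale, from 6.80 and 6.20 in whole embryo to 3.02 to 3.42 over the limb arrays. The Notch pathway was split, with 2 of 16 genes higher and 5 lower (median -0.25). Hes5, a target in neural progenitors, was lower, at -4.16 ± 0.30, and the ligands Dll3 (-2.51) and Dll1 (-2.15) were lower too, whereas Jag1 (1.89) and the target Hes1 (1.45) were higher. At E9.5 Hes5 was at -3.97, Dll3 at -3.03 and Dll1 at -2.5.

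The signalling centres that give the bud its outline showed few calls in both limbs. Of 14 ridge genes, Fgf8 and En1 were higher in both limbs and Sp8 lower (median 0.31), and of 12 hedgehog genes Disp1 and Gas1 were higher and none lower (median 0.41). Over all genes 10.3% were higher and 3.31% lower, so these counts are not far from the share of all genes. Fgf8, the main ridge signal, read 7.20, 6.81, 6.62 and 6.44 in FL, 8.05, 7.74, 7.56, 7.51 and 7.40 in HL and 4.31 and 5.09 in whole embryo. No limb array overlapped whole embryo, and the difference was 2.51 ± 0.28 (E9.5 1.94). En1, a factor of ventral ectoderm, was higher by 1.47 ± 0.22 but lost its call without whole-embryo replicate 1 (0.95), and Sp8, a ridge factor that the brain also makes, was lower, at -1.21 ± 0.20, and lost its call without whole-embryo replicate 2 (-1.02). En1 rests on 1 probe set at low levels, 4.59 in FL, 4.33 in HL and 2.99 in whole embryo. Dlx5, a homeobox gene of ridge and mesenchyme, was 1.54 ± 0.19 higher, at 2.09 and called in FL and at 0.99 and short of a fold of 2 in HL. The other ridge genes did not pass in both limbs, with Fgf9 at 0.85, Sp6 at 0.46, Jag2 at 0.46, Dlx6 at 0.47, Dlx2 at 0.17, Fgf17 at 0.15, Dlx3 at 0.13, Fgf4 at -0.12, Wnt3 at -0.21 and Rspo2 at -0.58. Rspo2 was at 0.76 at E9.5. Probe sets disagreed in Sp6, with 1.42 in one and 0.05 to 0.28 in the others, and in Jag2, with 1.18 and -0.25.

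Shh, the polarizing signal, was at 5.56, 5.04, 4.63 and 4.95 in FL, 6.82, 6.53, 6.27, 6.78 and 6.13 in HL and 6.87 and 6.86 in whole embryo. Its average hides a disagreement, as one probe set gave 3.89 in FL, 4.69 in HL and 3.67 in whole embryo and the other 6.20, 8.32 and 10.06. The difference of both limbs from whole embryo was -1.09 for the average and 0.62 and -2.8 for the probe sets. Disp1, which releases the signal from its source, was higher by 1.87 ± 0.13 (E9.5 1.11), and Gas1, a co-receptor, by 1.07 ± 0.10 with 0.97 and no call without whole-embryo replicate 1. The receptor Ptch1 (-0.31), the effectors Gli1 (0.42), Gli2 (0.98) and Gli3 (0.39), the transducers Smo (0.86) and Sufu (0.28), the co-receptors Boc (0.65) and Cdon (0.16) and the antagonist Hhip (-0.34) were not called in both limbs. Some of these averages also hide probe sets that disagree, so they do not show a lack of change. Single probe sets gave 1.28, -0.92 and -1.3 in Ptch1, 1.48, -0.59 and 0.28 in Gli3 and 0.95, -1.08, 0.29 and -1.5 in Hhip.

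Some genes of the skeleton were higher than in whole embryo, while a gene without a call may still be expressed in the limb. Of 17 cartilage genes 5 were higher in both limbs and none lower (median 0.8), or 4 without HL replicate 5, and the forelimb led. Matn4, a matrilin of cartilage matrix, read 9.20, 9.38, 9.5 and 9.56 in FL, 7.52, 8.20, 8.42, 7.89 and 8.37 in HL and 5.15 and 5.01 in whole embryo. The ranges of FL, HL and whole embryo did not touch, and the difference from whole embryo was 3.67 ± 0.25 against -0.29 at E9.5. Col2a1, the main collagen of cartilage, was higher by 2.26 ± 0.21 and Col9a2 by 2.06 ± 0.27, with 0.18 and -0.01 at E9.5. The chondrocyte regulators Sox9 (0.38), Sox5 (0.36) and Sox6 (0.41) and the later matrix gene Acan (0.93) were not called in both. Joint genes had 4 of 7 up and 1 down (median 1.31). Osr1 was at 10.48, 9.83, 9.73 and 10.39 in FL, 9.90, 9.73, 9.96, 9.52 and 9.77 in HL and 4.77 and 4.89 in whole embryo, higher by 5.11 ± 0.19, and Gdf5, which marks the future joint, by 3.28 ± 0.22, with 0.05 and 0.24 at E9.5. Barx1, also a gene of the jaw and stomach, was lower (-1.4). No osteoblast gene of 5 was called, and of 6 tendon genes 1 was, the tendon regulator Scx, at 1.71 ± 0.12. The probe sets of Scx disagreed, at 3.01 and 0.41, and 10.3% of all genes were called higher in both limbs.

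Muscle precursors had 2 of 10 genes higher in both limbs and none lower (median 0.53), against 10.3% higher over all genes. These were Lbx1 (1.29, E9.5 1.71) and Met (2.15, E9.5 0.81), which the cells need to migrate into the bud. The probe sets of Met gave 3.36 and 0.95. Pax3, the upstream factor of these precursors that also marks neural tube and somite, was at -1.1. No gene of 11 for the muscle fibre was called in both limbs (median -0.15), and 3 were called up in FL alone. Of 13 endothelial genes 5 were higher and none lower (median 0.6), led by Pecam1, with 8.23 to 8.49 in FL, 8.50 to 8.62 in HL and 4.72 and 5.41 in whole embryo, 3.41 ± 0.12 higher in the limbs and 0.09 at E9.5. The receptors Kdr (-0.71), Flt1 (-0.48) and Tek (-0.77) lay on the other side without a call. Without whole-embryo replicate 1, 3 endothelial genes were called, and after quantile normalization 2 were higher and 2 lower. Of 13 genes of surface ectoderm 4 were higher and none lower (median 0.44), with the basal keratins Krt5 and Krt14 at 2.1 each and the epidermal factor Grhl3 at 1.46. Of 17 genes of connective tissue matrix 3 were higher in both limbs, none lower (median 0.77). These were the hyaluronan synthase Has2 (1.72 ± 0.13), the fibrillin Fbn2 (1.25) and the laminin Lamb1 (1.09). Their probe sets disagreed, at 2.63 and 0.81 in Has2, 2.08 and 0.42 in Fbn2 and 3.01, 0.85, 0.57 and -0.06 in Lamb1. The brightest probe set of each gave 0.81, 0.42 and 0.57, below a fold of 2 for the mean of both limbs. Of 10 genes of the sclerotome and dermomyotome 2 were higher in both limbs, against 10.3% of all genes. They were the mesodermal factors Tbx18 (2.86 ± 0.15) and Meox2 (1.84 ± 0.14), while Pax1, which marks the sclerotome, was at -0.85.

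The tissues that a limb lacks gave the reverse picture. Of 18 neuronal genes 15 were lower in both limbs and none higher (median -3.37), and of 13 neural progenitor genes 12 were (median -2.12), leaving Nes, an intermediate filament also made by muscle and vessels, at 0.05. Nhlh2, a factor of young neurons, was at 3.71, 3.63, 3.46 and 3.26 in FL, 3.43, 3.44, 3.38, 3.42 and 3.57 in HL and 9.53 and 10.18 in whole embryo, the largest fall of any gene called in both limbs (-6.37 ± 0.41). Sox2, which keeps neural progenitors dividing, was at 3.78 to 4.32 in FL, 3.99 to 4.79 in HL and 10.47 and 10.66 in whole embryo, a difference of -6.36 ± 0.62, and the radial glial Fabp7 followed with -6.11 ± 0.47. At E9.5 the difference was -7.33 for Sox2, -5.15 for Fabp7 and -2.2 for Nhlh2. Neurofilament genes were low as well, with Ina at -5.57 (E9.5 -1.63) and Nefl at -4.78 (E9.5 -0.84). Among the other genes with agreeing probe sets at the low end were the neuronal factors Neurod1 (-4.54), Insm1 (-3.93), Onecut2 (-3.81) and Pou4f1 (-3.53), the RNA-binding Elavl4 (-4.64) and the tubulin-binding Stmn3 (-4.5), all at or below -1.32 at E9.5. Of 9 transcription factors of brain regions 3 were lower (median -0.77), Otx2 of the forebrain and midbrain (-3.8), En2 of the midbrain and hindbrain (-2.41) and Pou3f2 (-1.64). Zic1, a factor of dorsal neural tube and somite, was at 4.70 to 5.01 in FL and 10.73 and 10.20 in whole embryo, but HL replicate 2 held 7.76 where the other hindlimbs held 4.22 to 5.14. In that array the mean log2 level of the neural progenitor list was 4.73 against 4.32 to 4.48 in the other limb arrays and 7.26 and 7.54 in whole embryo.

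Of 12 liver genes 10 were lower in both limbs and none higher (median -3.57). Alb, the main plasma protein, whose promoter is shown above, was at 3.74, 3.98, 4.21 and 3.75 in FL, 3.72, 3.94, 3.92, 4.06 and 3.99 in HL and 9.67 and 9.0 in whole embryo. The limb arrays lay together at the low end of the array scale, and the difference was -5.42 ± 0.34. Ttr, the thyroid hormone carrier, was at -5.46 ± 0.30, Serpina6, which binds glucocorticoids, at -4.84 ± 0.22 and Afp, the fetal counterpart of Alb, at -4.35 ± 0.44 as a mean of probe sets that ran from -7.93 to -0.46. At E9.5 Alb was at 0.69 and Serpina6 at 0.05. Heart genes gave 7 of 13 lower and none higher (median -1.71), with the atrial peptide Nppa at -4.6 ± 0.12 and the myosin light chains Myl2 and Myl7 at -4.35 and -4.26. At E9.5 they were at -4.15, -3.63 and -5.34. Of 11 genes of kidney, gut and lung 3 were lower, the endodermal Foxa1 (-4.06) and Foxa2 (-1.2) and the kidney and mesothelial Wt1 (-1.9). Foxa2 and Wt1 lost their calls without whole-embryo replicate 2, and Wt1 also without whole-embryo replicate 1. Anterior Hox genes, which pattern the hindbrain and trunk, had 5 of 19 lower and none higher (median -0.82), with Hoxb5 at -3.37, Hoxd3 at -2.13 and Hoxc8 at -2.09. Quantile normalization raised this to 8. Hoxb5 was at 2.14 at E9.5.

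Blood was shared by limb and embryo. Of 10 erythroid genes 1 was higher and 2 lower in both limbs, and the list ranged from 9.40 to 9.71 in mean log2 level in the limbs and from 9.31 to 9.70 in whole embryo. Over all genes 10.3% were higher and 3.31% lower. Hba-x, an embryonic globin of circulating red cells, was higher by 1.55 ± 0.19, and Hemgn and Gata1, which are needed while red cells mature, were lower, at -1.97 ± 0.31 and -1.66 ± 0.17. The calls depend on the embryos, as Hemgn lost its call without whole-embryo replicate 2 and Hba-x under quantile normalization, where the median of the list turned from 0.39 to -0.11. No macrophage, germ cell or lens and retina gene was called in both limbs, nor was any neural crest gene or Iroquois gene. Mitosis and replication genes had none called in both of 19 (median 0.31, -0.14 under quantile normalization).

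Genes of the cytoskeleton, of growth and of general cell upkeep were also among the highest. Cap1, which recycles actin, read 10.73, 10.76, 10.58 and 10.74 in FL, 10.71 to 10.78 in HL and 5.10 and 6.22 in whole embryo, a fold of 33.5 and a log2 difference of 5.07 ± 0.17, and it was at 0.22 at E9.5. Both of its probe sets gave it, at 4.4 and 5.73. Csrp1, a LIM protein on actin bundles, was higher by 4.2 ± 0.11 (E9.5 0.26), and Pfn1, which loads actin monomers, by 4.87 ± 0.46 with 6.63 and 9.40 in whole embryo. In all, 7 of 17 actin genes were higher and none lower (median 0.87). Grb10, an imprinted brake on growth, was at 11.43, 11.22, 9.99 and 11.24 in FL, 11.22 to 11.36 in HL and 7.53 and 7.34 in whole embryo, 3.69 ± 0.23 higher (E9.5 -0.16), but its 3 probe sets gave 6.8, 3.94 and 0.32. Its brightest probe set, at 12.88 in FL, 12.81 in HL and 12.52 in whole embryo, was the last of these and gave no call. Of 14 imprinted genes 6 were higher and 1, Magel2, lower (median 0.9), with the growth factor Igf2 at 3.02 ± 0.26 and Nnat at 4.42 ± 0.31. Supt16, which helps polymerases through chromatin, Atic of purine synthesis and the deubiquitinase Otub1 were higher by 3.65, 3.39 and 3.86 with agreeing probe sets and at 0.05, 0.27 and 1.0 at E9.5. Other genes with agreeing probe sets among the 15 highest were Capn6, a calpain relative of embryonic muscle and mesenchyme (3.85, E9.5 2.44), the chemokine Cxcl14 (3.66, E9.5 1.27), the kinase Nrk (3.34, E9.5 -0.32), the protease Ctse (3.28, E9.5 0.01) and the TGF-beta receptor Tgfbr1 (3.27, E9.5 0.31). In Tgfbr1 FL replicate 3 was at 8.60 and the other limb arrays at 9.33 to 9.63, and its brightest probe set gave 0.41 and no call. AI506816, a transcript of unstated function with 1 probe set, had the largest rise of all genes called in both limbs, 5.44 ± 0.09, and was at 0.35 at E9.5.

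**Figure D3:**
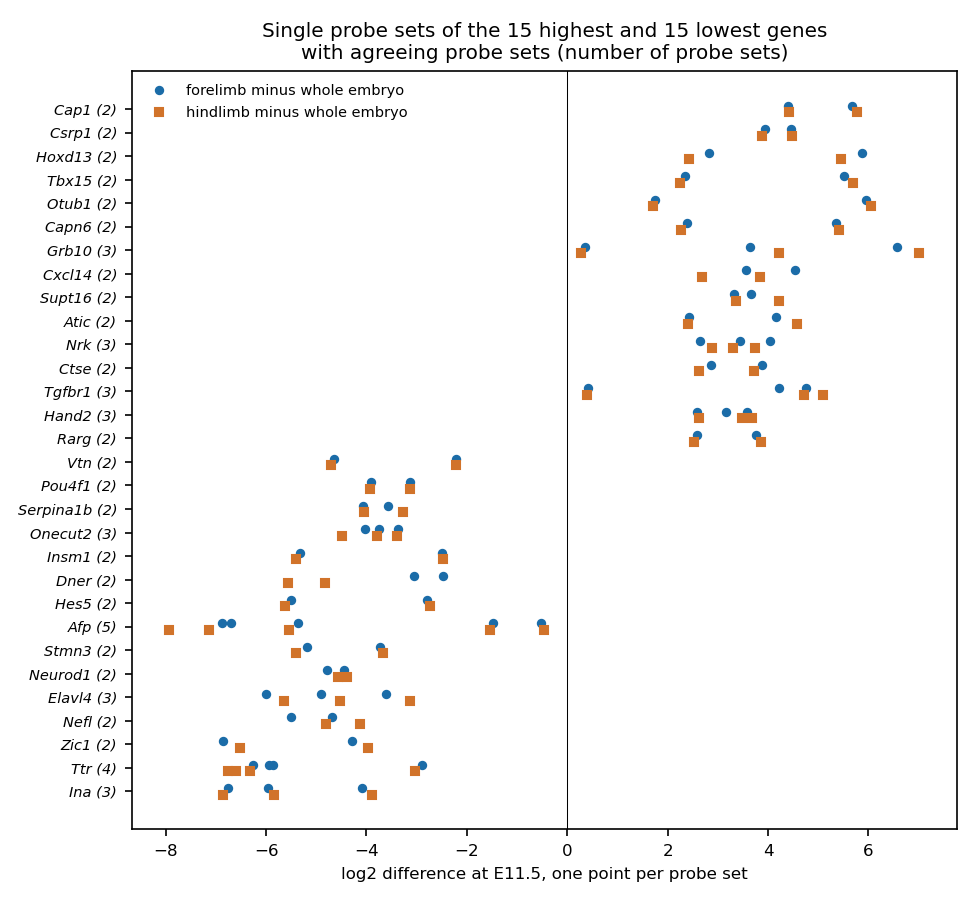
Log2 difference from whole embryo at E11.5 (x axis) of each probe set, in FL and in HL, for the 15 highest and 15 lowest genes with agreeing probe sets (y axis). Points of a gene lie on 1 side of 0 in both limbs, and Grb10 shows the widest spread among the highest genes, from 0.28 to 7.02.

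Ribosomal protein genes, which every cell uses, had 4 of 11 higher in both limbs (median 0.81), with Rpl19 at 1.41 and Rplp0 at 1.17, and the respiratory chain 2 of 15 (median 0.59), Cox7a2 and Ndufa4. The share over all genes was 10.3%, so the respiratory chain count is near it. Under quantile normalization none of the ribosomal genes was called and their median was 0.06, and in the respiratory chain 2 genes were called lower and none higher. The same step took Fbn2 (0.85), Lamb1 (0.86), Gas1 (0.83) and Emcn (0.89) below a fold of 2, and left the differences of Hoxd12, Nhlh2 and Alb called.

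The limbs of the same day differed from each other in few genes. The study describes hindlimb development as delayed relative to the forelimb, and adjacent stages were not compared between the limbs here. At E11.5, 18 genes (0.0989%) were higher in HL and 57 (0.313%) higher in FL. The excess in FL depends on the fit, with 14 and 27 genes in the E11.5 arrays alone and 8 and 10 when the replicate number was also a block. The known genes of limb type stood out. Pitx1, the hindlimb determinant, was at 5.24, 5.14, 5.45 and 5.26 in FL, 10.61, 10.74, 10.87, 10.66 and 10.65 in HL and 6.23 and 6.65 in whole embryo. HL was above and FL below the embryos, and HL exceeded FL by 5.44 ± 0.16 (adjusted p = 6.56e-28 in limma). Tbx4, the hindlimb T-box factor, was at 6.69 to 6.83 in FL, 9.98 to 10.25 in HL and 6.20 and 6.13 in whole embryo, 3.32 ± 0.10 higher in HL. Tbx5, its forelimb counterpart, was at 9.72, 9.53, 8.42 and 9.94 in FL, 5.37 to 6.02 in HL and 6.13 and 6.09 in whole embryo, with FL replicate 3 the lowest forelimb, and HL was below FL, at a difference of -3.8 ± 0.17. Isl1, which starts the hindlimb and is made by motor neurons, was lower than whole embryo in both limbs (9.44 and 9.69 in whole embryo) yet higher in HL, at 8.07 to 9.10, than in FL, at 5.76 to 6.51, by 2.29 ± 0.21.

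**Figure D4:**
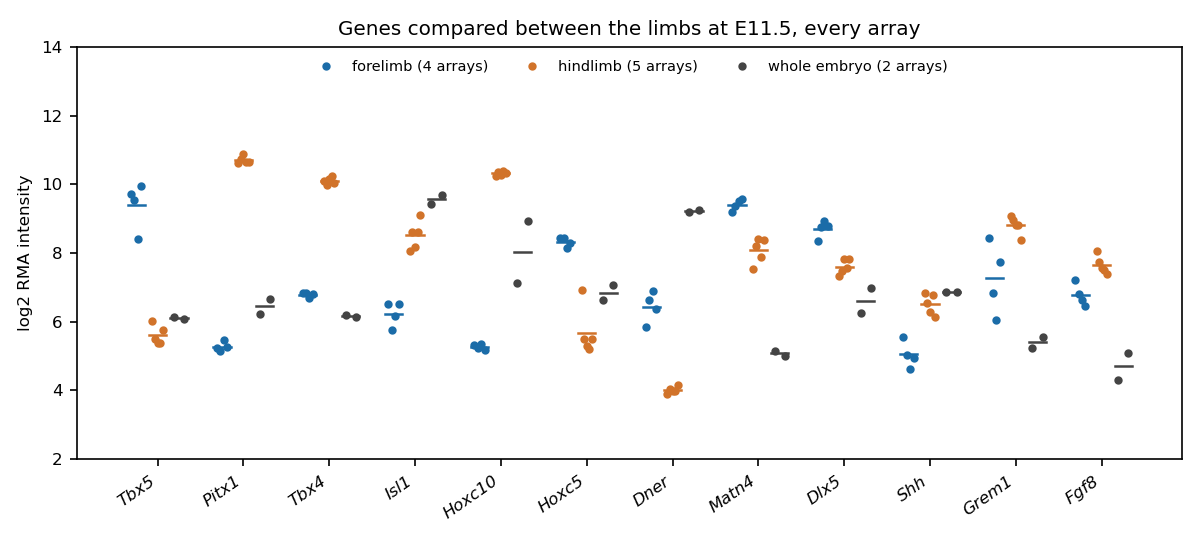
Log2 levels (y axis) of 12 genes on each FL, HL and whole-embryo array of E11.5, 1 point per array and a bar at each group mean. Pitx1, Tbx4, Isl1 and Hoxc10 are higher in HL and Tbx5, Hoxc5, Dner and Matn4 higher in FL, with no overlap of FL and HL.

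Genes of the HoxC cluster, which are set by position along the trunk, separated the limbs as well. Hoxc10 was at 5.16 to 5.36 in FL and 10.25 to 10.40 in HL, with 7.12 and 8.92 in whole embryo, a difference between the limbs of 5.06 ± 0.26, and Hoxc5 was at 8.15 to 8.44 in FL and 5.20 to 5.50 in HL replicates 2 to 5 but 6.92 in replicate 1, a difference of -2.65 ± 0.22. Pitx1, Hoxc10 and Hoxc5 were the only genes called in opposite directions in the 2 limbs against whole embryo. Dner, a Notch ligand of neurons, was at 5.83 to 6.89 in FL, 3.88 to 4.16 in HL and 9.18 and 9.24 in whole embryo, -2.42 ± 0.19 between the limbs. Shh and Grem1 were higher in HL, by 1.46 ± 0.16 and 1.54 ± 0.28, and Fgf8 by 0.89 ± 0.24, short of a call. Grem1 lost its call between the limbs without FL replicate 2, FL replicate 3 or HL replicate 1. Cartilage (Matn4 at -1.33) and muscle fibre genes had 3 each higher in FL and none higher in HL. In Myl1, a myosin light chain of skeletal muscle, FL read 10.40, 10.80, 10.96 and 11.06 while HL read 9.87 and 9.98 in replicates 1 and 2 and 8.66, 7.89 and 8.69 in replicates 3 to 5. The cartilage count was 1 without FL replicate 3 or FL replicate 4, and the muscle fibre count 5 without HL replicate 1. Matn4 and Myl1 also gained on whole embryo from E10.5 to E11.5, by 3.84 and 4.28. The share of the hindlimb delay in these differences between the limbs was not tested. Of the genes called against whole embryo in 1 limb alone, 252 in FL and 268 in HL were up and 61 and 116 down, but only 34 and 16 of these differed between the limbs by the test.

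The difference of both limbs from whole embryo at E11.5 was then set against that at E10.5 and at E12.5. Only an offset between limb and whole-embryo arrays that is constant over stages cancels in this. The mean Gapdh measure of whole embryo was 2.59 at E10.5, 2.14 at E11.5 and 1.93 at E12.5, with limb groups at -0.06 to 0.08. Stage and litter cannot be told apart either. The difference is signed, limb minus whole embryo, so a negative difference that widened counts as smaller. Against E10.5 the difference was greater for 90 genes (0.495%) and smaller for 54 (0.297%), and against E12.5 greater for 280 (1.54%) and smaller for 52 (0.286%), where the median over all genes was 0.04 and 0.15. After quantile normalization 210 genes were greater and 108 smaller against E12.5. From E10.5 to E11.5 cartilage genes gained, 5 of 17 with none falling. Matn4 gained 3.84 ± 0.36, Kera, a proteoglycan of connective tissue, 3.69 ± 0.32, Gdf5 2.96 ± 0.32 and Fgf18 2.54 ± 0.41. Without whole-embryo replicate 1 the cartilage count was 3 and without replicate 2 it was 2. The muscle genes Actc1 (5.25 ± 0.96), Myl1 (4.28 ± 0.63) and Unc45b (3.09 ± 0.37) gained too, and Actc1, also an actin of the heart, lost its call without either whole-embryo array. Hoxa13 gained 2.3 ± 0.44, while Hoxd13 (1.09) and Hoxd12 (1.17) were not called. Among signals the limb minus whole-embryo difference of Shh fell by 1.67 log2, as an average of probe sets that gave 0.62 and -2.8 at E11.5. That of Fgf8 changed by -1.89 without a call (adjusted p = 0.00146 in limma). Whether limb or embryo moved was not tested.

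Liver genes went the other way. Their difference from whole embryo widened in 8 of 12 from E10.5 to E11.5, with Alb at -3.19 ± 0.48, Serpina6 at -3.1 ± 0.31 and Ttr at -2.3 ± 0.42, and 5 were called without whole-embryo replicate 1. Against E12.5 the same list gave 8 of 12 greater at E11.5, with Fga at 3.04 ± 0.20 and Alb at 2.18 ± 0.48, so that limb and embryo were farther apart at E12.5. Erythroid genes gave 9 of 10 greater at E11.5 than at E12.5 and none against E10.5, with Rhag of the red cell membrane at 4.78 ± 0.39, Hemgn at 4.51 ± 0.44 and the erythroid factor Klf1 at 2.97 ± 0.34. At E11.5 these genes stood at 0.69, -1.97 and -0.35 against whole embryo. In each of them limb and embryo were thus farther apart at E12.5, with the limbs lower. One E12.5 whole-embryo array had been corrected for a blemish. Without it, an alternative chosen after seeing the data, 8 erythroid and 6 liver genes were called, and without whole-embryo replicate 1, 6 and 5. Liver was at 5 without whole-embryo replicate 2 too. Alb was near the limit (adjusted p = 0.000778 in limma) and lost its call against E12.5 without FL replicate 2 or 3, HL replicate 2, 3, 4 or 5, either whole-embryo array of E11.5 or the corrected array, with adjusted p up to 0.0108. Of limb mesenchyme factors 3 were greater at E11.5, but none was without the corrected array or after quantile normalization, and 5 were without whole-embryo replicate 2. In the latter case 850 genes in all were greater at E11.5 than at E12.5, and 123 without whole-embryo replicate 1.

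**Figure D5:**
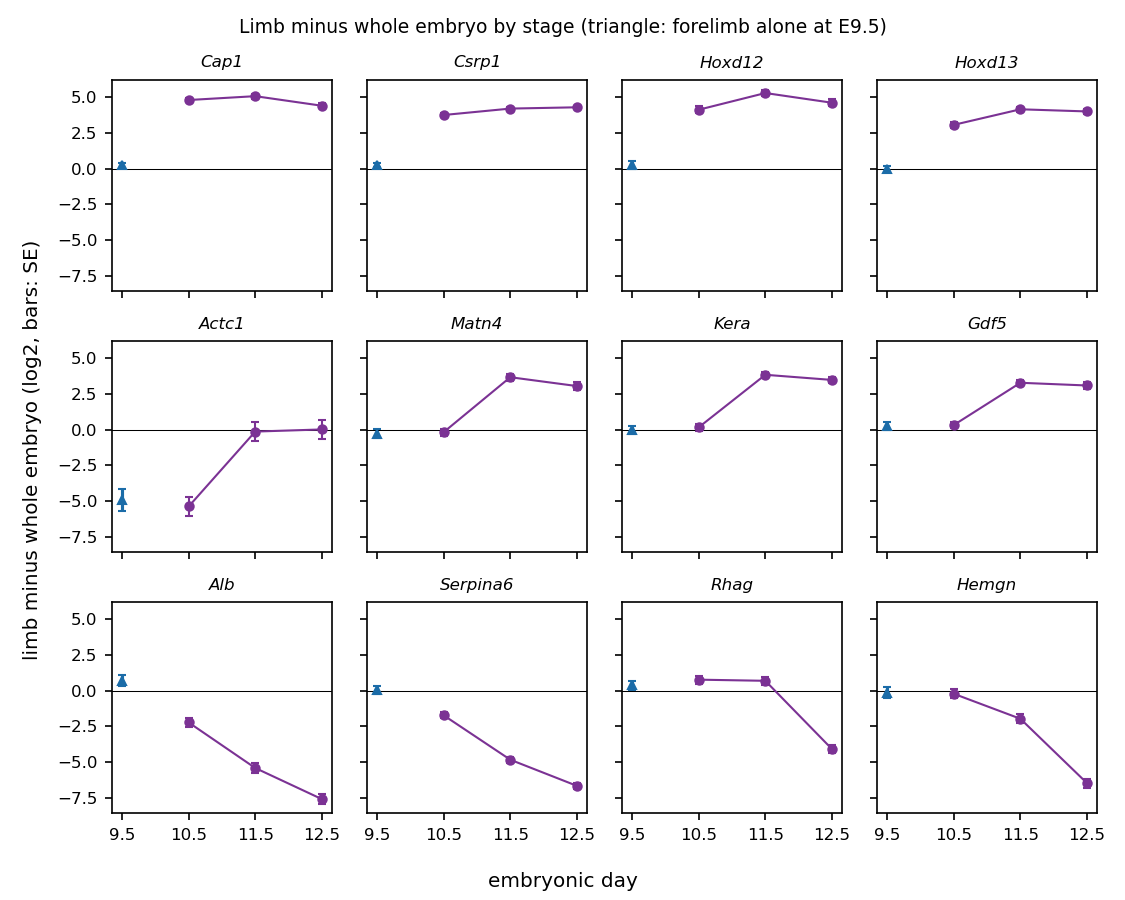
Log2 difference of both limbs from whole embryo (y axis, with standard errors) at each stage (x axis) for 12 genes, the triangle being the E9.5 forelimb alone. Alb falls to -5.42 at E11.5 and Matn4 climbs to 3.67, while Hoxd12 stands at 5.29.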

How the data were processed

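Total RNA of limb buds and of whole embryos of FVB mice was labelled in 2 cycles and hybridised to Affymetrix Mouse Genome 430 2.0 arrays, 1 embryo per array. RMA was run by the authors for background, normalization and summary per probe set, with its version not given in the sources used here, and a spot of damage on the array of 1 whole embryo (E12.5) was repaired by them. Intensities were deposited on a linear scale, and their log2 was taken here. Of 45101 probe sets, 35890 were in the probe table. The 34958 with 1 gene symbol were averaged per gene, giving 18194 genes, 9182 with a single probe set, and 932 with several symbols were left out. Groups follow the titles. All 14 groups were fitted together in limma 3.58.1 (R 4.3.3) with 37 residual degrees of freedom and empirical Bayes statistics, after the script was tested on simulated data. A gene was called at a fold change of 2 or greater and a Benjamini-Hochberg adjusted p below 0.001, the thresholds of the study's methods, and in both limbs where FL and HL were each called. Log2 values lay between 2.29 and 14.79 with a median of 5.31, and the number of arrays limits the precision, most of all the 2 whole-embryo arrays. As limb replicates are litter mates, p-values measure the spread between them and not between litters. All SE are those of the fit.

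The comparison and the lists were chosen with earlier results of these data known. Named are the 15 highest and 15 lowest genes called in both limbs with agreeing probe sets and no overlap, up to 3 genes of each of 39 lists (or the 1 of largest change), every measured gene of the posterior HoxA and HoxD, limb type, ridge and hedgehog lists, the 5 highest and 5 lowest genes whatever their probe sets, the 5 largest differences between the limbs, and the 5 highest and 5 lowest of each comparison of stages, in all 159 genes. Other list members given with a value were added for their known roles after their values were seen. Of 480 list entries 38 were not analysed here. The lists are not independent of each other. Sequences are from RefSeq. Alternatives were the fit of E11.5 alone, a block on the replicate number, quantile normalization, median centring, the brightest probe set, a filter on dim genes, an intensity trend, a threshold of 0.05 and the removal of each E11.5 array. The removal of HL E10.5 replicate 3, whose Sox2 stands apart, and of the corrected whole-embryo array of E12.5 was added after seeing the data. Figures were drawn with matplotlib 3.10.9 in Python 3.11.15.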

Additional observations from a re-analysis of the deposited data

Results flagged for a closer look

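Effects that differed by a test of the difference itself are listed here as log2 differences, each with an adjusted p below 0.001 in limma and a change of 2-fold or greater, among the named genes. Where stages are compared, greater and smaller refer to the signed difference, limb minus whole embryo, and not to its size. Between the limbs, where FL and HL against whole embryo share the whole-embryo arrays, HL was higher in Grem1 (1.54), Hoxc10 (5.06), Isl1 (2.29), Pitx1 (5.44), Shh (1.46) and Tbx4 (3.32) and lower in Dlx5 (-1.11), Dner (-2.42), Hoxc5 (-2.65), Irx1 (-1.27), Matn4 (-1.33), Phex (-1.15), Tbx5 (-3.8) and Unc45b (-1.34). Against E10.5, the difference of both limbs from whole embryo was greater at E11.5 in Actc1 (5.25), Col9a2 (1.97), Fgf18 (2.54), Gdf5 (2.96), Has2 (1.21), Hoxa13 (2.3), Kera (3.69), Matn4 (3.84), Myl1 (4.28), Osr1 (1.56) and Unc45b (3.09) and smaller in Alb (-3.19), Lamp5 (-2.33), Mup10 (-2.15), Pou4f1 (-1.17), Serpina1b (-1.77), Serpina6 (-3.1), Shh (-1.67) and Ttr (-2.3). Against E12.5, it was greater at E11.5 in Alb (2.18), Cxcl14 (1.43), Dlx2 (1.31), Fga (3.04), Frg1 (2.98), Gata1 (1.39), Hba-x (1.66), Hemgn (4.51), Klf1 (2.97), Krt14 (1.06), Krt5 (1.44), Nnat (2.57), Osr2 (1.18), Rhag (4.78), Serpina1b (1.82), Serpina6 (1.84), Stmn3 (1.58) and Tbx15 (1.03) and smaller in 1700003E16Rik (-3.0), 4632427E13Rik (-1.95), Gdap10 (-2.28), H3f3b (-2.71) and Trpc2 (-2.19). Frg1 lost its call against E12.5 without whole-embryo replicate 1 (1.84) or the corrected E12.5 array (2.66), Gdap10 without either whole-embryo replicate (-2.43 and -2.13), and Mup10 against E10.5 without FL replicate 3 or 4 or either whole-embryo replicate. Whether limb or embryo moved between the stages was not tested.

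A single array stood apart from the rest of its group by Dixon's test in 17 of 318 groups of values tested, and chance flags about 1 in 20. FL replicate 3 was the lowest forelimb in Cap1 (10.58, others 10.73 to 10.76), Capn6 (11.64, others 11.84 to 11.87), Grb10 (9.99, others 11.22 to 11.43), Hoxa13 (7.99, others 8.54 to 8.60), Net1 (10.06, others 10.39 to 10.41) and Tbx15 (9.73, others 10.16 to 10.21) and the highest in C1qa (7.13, others 6.94 to 6.97). FL replicate 1 was lowest in Kera (8.81, others 9.27 to 9.35) and Unc45b (6.74, others 7.30 to 7.32). Among hindlimbs replicate 1 stood apart in Hoxc5 (6.92, others 5.20 to 5.50), replicate 2 stood apart in Hoxd10 (10.44, others 10.25 to 10.28), Pou4f1 (3.45, others 3.36 to 3.38) and Zic1 (7.76, others 4.22 to 5.14), replicate 3 stood apart in Cxcl14 (10.02, others 9.75 to 9.79), replicate 4 stood apart in 1700003E16Rik (5.99, others 5.74 to 5.78) and Ctnnb1 (12.59, others 12.55 to 12.56) and replicate 5 stood apart in Onecut2 (3.34, others 3.49 to 3.53). All values are log2 levels.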

How the results depend on the processing

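No named result was reversed. Exceptions outside these are the 5 genes called the other way with the brightest probe set and, under quantile normalization, list medians (among them erythroid and mitosis) and the respiratory chain calls given above. Called in both limbs, 1108 of the 1872 up genes and 586 of the 602 down genes were still called after quantile normalization, where 1138 were up in both, 1324 in FL and 1331 in HL, 202 were up with agreeing probe sets, and 108 were smaller at E11.5 than at E12.5. With the brightest probe set of each gene 1236 and 519 were still called and 2 and 3 were called the other way, and 88 genes were higher in FL than HL. The filter on dim genes left 196 down in FL, 214 in HL and 165 in both, 31 higher in FL than HL, and 16 and 23 smaller at E11.5 than at E10.5 and E12.5. It drops genes of low mean level over 9 limb and 2 whole-embryo arrays, so most of the 602 down genes were not tested under it. At an adjusted p below 0.05, 149 and 85 genes were greater and smaller against E10.5 and 524 and 79 against E12.5. The fit of E11.5 alone gave 27 genes higher in FL than HL.

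Same-numbered limb arrays of FL and HL correlated at 0.128, 0.069, 0.113 and -0.11 in their deviations, and 2 of the 4 did not pass 0.1, so the pairing by number was not borne out. FL and HL of a stage may come from the same embryos, but no source used here says that the numbers mark them. With the replicate block, on E11.5 alone, 2009 genes were up in FL, 2052 in HL and 1775 in both, and 10 were higher in FL and 8 in HL.

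Leaving out 1 array of E11.5 (or of another stage, where it entered) gave 1809 to 2501 up in FL, 638 to 676 down in FL, 1817 to 2551 up in HL, 695 to 732 down in HL, 14 to 20 higher in HL than FL, 41 to 69 higher in FL than HL, 70 to 105 greater against E10.5, 49 to 57 smaller against E10.5, 123 to 850 greater against E12.5, 35 to 80 smaller against E12.5, 1580 to 2235 up in both, 580 to 615 down in both, 314 to 497 up with agreeing probe sets and 87 to 93 down with agreeing probe sets. Of the named results, 13 lost a call without whole-embryo replicate 1 and 12 without whole-embryo replicate 2, at most 4 without any limb array, 13 under quantile normalization and 12 each with the brightest probe set and the block. Without the corrected E12.5 array, 174 genes were greater and 79 smaller against E12.5. Depth does not apply to arrays, and log2 levels near 3 to 4, in limb or whole embryo, are near background, so differences from them are bounded by it.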
